A study of Arabidopsis thaliana with 6 samples.

Results

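The genes described here encode the COP1-SPA ubiquitin ligase, the DET1 complex and the HY5 pair of transcription factors. The ligase and the DET1 complex repress light development in darkness, and the HY5 pair promotes it. All were chosen by locus identifier, 10 genes of the 33602 loci listed: COP1, SPA1, SPA2, SPA3, SPA4, DET1, DDB1A, COP10, HY5 and HYH. Messenger RNA was measured by RNA sequencing in whole Arabidopsis thaliana seedlings of ecotype Col, wild-type or carrying the allele bbx4-1 of BBX4, a gene for a B-box zinc finger protein. All seedlings grew for 4 days in constant red light at 22 °C, so no dark-grown or white-light group stands beside them. The 3 biological replicates of each genotype were combined by the authors into 1 column of FPKM (fragments normalised to gene length and sequencing depth), so each gene has 1 value per genotype, with no SD and no test.

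COP1 is a RING-finger E3 ligase that works with the SPA proteins, which carry a kinase-like domain and, like COP1, WD40 repeats. The complex docks on the CUL4-DDB1 ligase and marks light-promoting transcription factors for destruction in darkness, among them the bZIP proteins HY5 and HYH, while active phytochromes and cryptochromes inhibit it in light. DET1, DDB1 and COP10 form a second complex that represses the same light responses. BBX4, also named CONSTANS-LIKE 3, is known to bind COP1.

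BBX4 itself had 88.97 FPKM for wild-type against 1095.7 FPKM for the column labelled bbx4-1, which is 12.3-fold higher. The cause of this difference was not tested. The labels do not state the lesion, and the table gives 1 value for the whole gene. The header of that column reads BBX4, and the sample descriptions tie it to the bbx4-1 samples. Every direction and every value for bbx4-1 below therefore refers to this column, called the column labelled bbx4-1. From transfer RNA genes with a single fragment, the summed depth was about 48.1 M fragments for the wild-type column, against 49.8 M for bbx4-1. The 95% intervals below come from fragment numbers at these depths, cover counting error only and leave out the variation between seedlings. Tissue markers had the levels of green seedlings with roots. The leaf genes RBCS1A (17575.14 FPKM for wild-type and 17123.05 FPKM for bbx4-1), CAB1, RCA and LHCA1 had log2 differences of −0.04, 0.03, −0.08 and −0.03. The 4 root genes summed to 221 and 184 FPKM, and went both ways: the iron transporter gene IRT1 was lower at 170.23 and 128.71 FPKM (−0.40) and SHR was at −0.12, whereas CASP1 was at 0.13 and SCR at 0.21. The part of root tissue in the results below was not tested. Of the other markers, the meristem gene STM (1.24 and 1.43 FPKM) and the seed genes CRA1 (8.87 and 10.24 FPKM) and OLEO1 (2.21 and 1.82 FPKM) were low, and CLV3, the seed gene AT2S3 and the floral genes AP3, PI and AG were each under 1 FPKM in both columns.

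HY5 is known to bind DNA motifs with an ACGT core, among them the G-box CACGTG and the T/G-box CACGTT, and to bind its own promoter. The 250 bases before the annotated start of 9 of the 10 members were read from the TAIR10.1 RefSeq assembly and searched on both strands. The T/G-box was present for 3 of 9 members against 7.54% of 27443 nuclear protein-coding genes, the G-box for 1 of 9 against 6.49%, and an ACGT core, which lies inside both motifs, for 7 of 9 against 44.1%. With 9 windows, these shares are a description and not evidence of binding. The 4 motif matches are printed below as 30-base windows on the strand of the gene, 5′ to 3′, with the motif in capitals, to show that HY5 and COP1 themselves carry such letters near their starts. AACGTG is the T/G-box read from the other strand.
HY5, chr5:3595074-3595103, minus strand: atctaacggctaaaatccaccCACGTTcca
COP1, chr2:13977824-13977853, plus strand: cgcgtagaccagAACGTGtaggatttgtca
SPA3, chr3:5173118-5173147, minus strand: tcgaagattaacCACGTTgcttgcgtgtaa
COP10, chr3:4425075-4425104, minus strand: ttattaaggattCACGTGgttataacatga
The first motif base lay 9 bases before the annotated start of HY5, 45 before that of COP1, 30 before that of SPA3 and 198 before that of COP10. HYH, SPA1 and DDB1A held an ACGT core without either motif, and SPA4 and DET1 held none in this window. Of the 4 members whose levels were higher beyond counting error (COP1, SPA4, HY5 and HYH, below), COP1 and HY5 held a T/G-box and HYH and SPA4 did not. SPA3, with a T/G-box, had a log2 difference of −0.04, and COP10, with a G-box, 0.001. A link between motif and level was not tested.

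All 10 members were expressed in both columns, and none differed by 1.2-fold. Differences and folds were counted on the log2(FPKM + 1) scale, in which the pseudocount of 1 understates changes of low genes. The differences between the column labelled bbx4-1 and wild-type ran from −0.05 for SPA1 to 0.18 for SPA4. Of 18931 loci that averaged 1 FPKM or more over both columns, 5.14% passed 1.2-fold upwards and 4.1% downwards, so 0 members past that fold is what most genes of the table gave. The 10 members had a median log2 difference of −0.01, with 5 above 0 and 5 below, where 59.1% of all these loci and 64.3% of nuclear loci at the members' levels were above 0. The median was 0.03 over all these loci and 0.04 over the 8772 nuclear loci whose mean FPKM lay in the members' range of 8.32 to 66.9. In that range 6.58% of loci differed by 1.2-fold or more either way, and 84.1% differed by no more than SPA4, the member that differed most.

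Beyond their 95% counting interval, 4 members were above 0 (COP1, SPA4, HY5 and HYH) and 1 was below (SPA1). That margin was passed upwards by 24.1% of 18741 loci with an annotated length and downwards by 12.8%, or by 29.1% and 12.9% in the members' range of FPKM. With 10 genes, 4 and 1 do not set these members apart from other genes of their level. These calls depended on the scale. After rescaling by a trimmed mean of log ratios, 2 members were above 0 (COP1 and SPA4) and 3 below (SPA1, SPA3 and DDB1A), so the calls for HY5 and HYH ended.

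**Figure D1:**
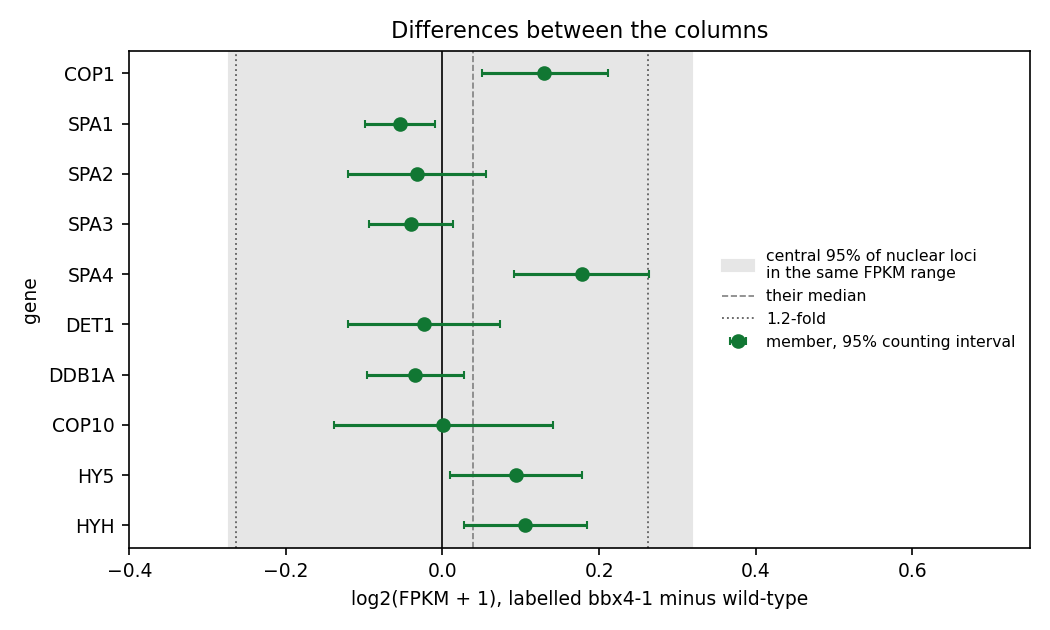
Difference of log2(FPKM + 1) between the column labelled bbx4-1 and wild-type for each member (points) with its 95% counting interval (bars); the grey band is the central 95% of 8772 nuclear loci in the same FPKM range, the dashed line their median and the dotted lines 1.2-fold. All 10 points lie inside the band and inside 1.2-fold.

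COP1 (AT2G32950, TAIR10.1 chr2:13977881-13983609, plus strand, 13 exons in its longest model) had 17.29 FPKM for wild-type and 19.02 FPKM for bbx4-1. It was 1.10-fold higher, a log2 difference of 0.13 (counting SE 0.041, interval 0.05 to 0.21) from about 2060 and 2348 fragments. Its difference was higher than that of 80.6% of all these loci. Reference genes commonly used to normalise plant expression spanned a similar range. The 6 measured ones had a median of 0.08, with GAPC1 at 0.20, UBC9 at 0.13, PP2AA3 at 0.02 and ACT2 at −0.08. Of these 6, 3 were above 0 and 1 below 0 beyond counting error, where 24.1% and 12.8% of all loci were. The COP1 difference was thus no larger than that seen among such genes.

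The 4 SPA genes, which act partly redundantly as COP1's partners, differed more from each other in level than between genotypes. SPA1 (AT2G46340, chr2:19022154-19027528, minus strand), with SPA2 a main repressor in dark-grown seedlings, had 38.6 FPKM for wild-type and 37.14 FPKM for bbx4-1, a log2 difference of −0.05 (interval −0.10 to −0.01). SPA2 (AT4G11110, chr4:6771605-6777225, plus strand) was the lowest of all 10 members, at 8.43 and 8.22 FPKM, a difference of −0.03 (interval −0.12 to 0.06). SPA3 (AT3G15354, chr3:5169095-5173105, minus strand), known to act mostly in later growth, was at 30.49 and 29.62 FPKM, a difference of −0.04 (interval −0.09 to 0.01). These 3 genes lay slightly lower in the column labelled bbx4-1, and counting error covered the difference for SPA2 and SPA3.

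SPA4 (AT1G53090, chr1:19783185-19786902, plus strand), the closest relative of SPA3, went the other way. It had 10.95 FPKM for wild-type and 12.52 FPKM for bbx4-1, 1.14-fold higher, a log2 difference of 0.18 (counting SE 0.044, interval 0.09 to 0.26) and higher than that of 88.1% of all loci. It was the only member still beyond counting error when the intervals were computed as if each column held 1 of its 3 libraries. SPA3 overlaps AT3G15350 on the opposite strand by 135 bp (6.06 and 5.86 FPKM) and SPA4 overlaps AT1G53100 by 3 bp (0.13 and 0.23 FPKM). Use of strand in the authors' counting is not stated in the labels.

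As shares of the summed SPA level per length, SPA1 took 43.6% for wild-type and 42.4% for bbx4-1, SPA3 34.5% and 33.9%, SPA4 12.4% and 14.3%, and SPA2 9.53% and 9.39%. SPA1 and SPA3 thus made up most SPA transcript in red-light seedlings of either genotype. The ratio of SPA3 to SPA4 was 2.78 in wild-type (interval 2.64 to 2.94) and 2.37 in the other column (2.25 to 2.49), a log2 change of −0.24 (−0.34 to −0.13) that does not depend on how the columns are scaled. By the same measure the ratio of SPA1 to COP1 went from 2.23 to 1.95, a log2 change of −0.19 (−0.29 to −0.10), and that of all SPA genes summed to COP1 from 5.12 to 4.6. The ratio of SPA4 to COP1 was 0.633 and 0.658, a log2 change of 0.06 whose interval spans 0 (−0.07 to 0.18). Of 13 ratios between genes computed in this way, 3 changed beyond counting error: SPA3 to SPA4, SPA4 to SPA2 (1.3 to 1.52) and SPA1 to COP1. The pairs were chosen and share genes, and no share was computed for other gene pairs. Among single loci in the members' range of FPKM, 29.1% passed their counting interval upwards and 12.9% downwards. These are shares for single loci and not for ratios between genes, so they cannot decide whether the 3 changes set these pairs apart.

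**Figure D2:**
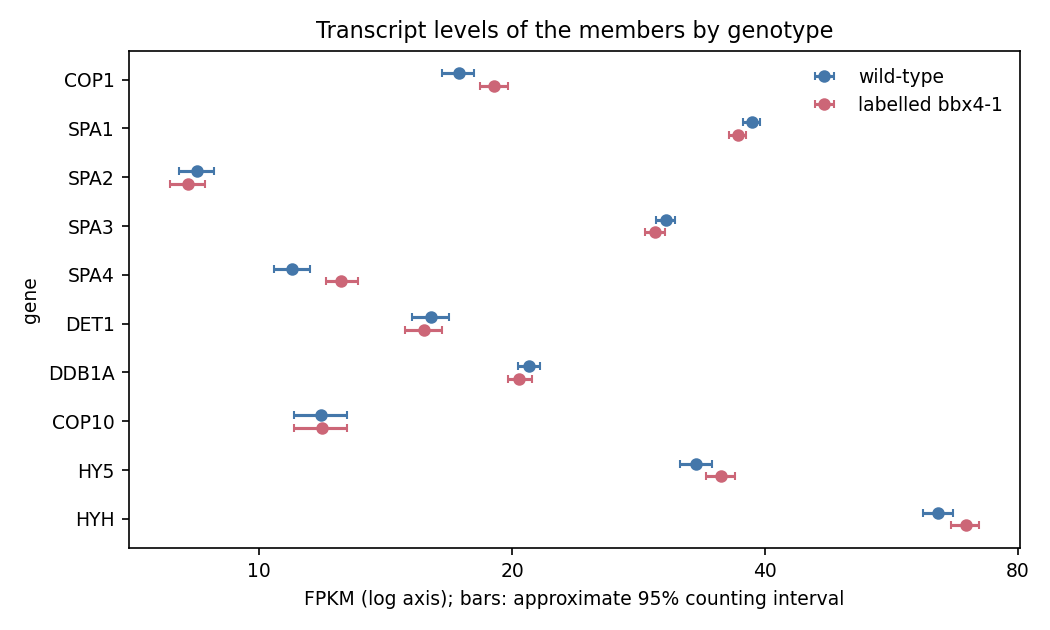
FPKM (log axis) of each member in the 2 columns, 1 value per genotype, with bars for the approximate 95% counting interval. HYH was the highest in both columns (64.38 and 69.36 FPKM) and SPA2 the lowest (8.43 and 8.22 FPKM).

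None of the 3 members of the DET1 complex differed beyond counting error. DET1 (AT4G10180, chr4:6346411-6349314, plus strand), a nuclear protein whose loss makes dark-grown seedlings look light-grown, had 15.99 FPKM for wild-type and 15.71 FPKM for bbx4-1, a log2 difference of −0.02 (interval −0.12 to 0.07). DDB1A (AT4G05420, chr4:2746114-2753014, plus strand, 19 exons), the adaptor that links DET1 to CUL4, was at 20.93 and 20.41 FPKM, a difference of −0.03 (−0.10 to 0.03). COP10 (AT3G13550, chr3:4423237-4424894, minus strand), a ubiquitin-conjugating enzyme variant, was at 11.85 and 11.86 FPKM, a difference of 0.001 (−0.14 to 0.14) from about 684 and 710 fragments, the fewest of the members. The intervals bound these differences for counting error and do not show that the levels were equal.

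DDB1A has a near copy, DDB1B, with 8.1 FPKM for wild-type and 8.31 FPKM for bbx4-1 (log2 difference 0.03, interval −0.06 to 0.13). DDB1A was 2.58 times as high as DDB1B in wild-type and 2.46 times in the other column, a log2 change of −0.07 (−0.20 to 0.05). Where reads could not be told apart between these copies, their separate values are uncertain. DDB1A stood at 1.31 and 1.3 times the level of DET1, and at 1.77 and 1.72 times that of COP10.

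HY5 and HYH, the transcription factors that the ligase removes in darkness, were both slightly higher in the column labelled bbx4-1. HY5 (AT5G11260, chr5:3593335-3595073, minus strand), the main activator of light-induced genes downstream of the photoreceptors, had 33.15 FPKM for wild-type and 35.44 FPKM for bbx4-1. That is 1.07-fold, a log2 difference of 0.09 (counting SE 0.043, interval 0.01 to 0.18), and 71.7% of all loci had a smaller or more negative difference. HYH (AT3G17609, chr3:6023844-6024710, plus strand), its partly redundant homologue, was at 64.38 and 69.36 FPKM, 1.08-fold, a log2 difference of 0.11 (SE 0.040, interval 0.03 to 0.18). Both intervals lie close to 0, and that of HY5 spanned 0 after each column was rescaled to its sum over nuclear loci.

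HYH transcript was 1.94 times as abundant per length as HY5 transcript for wild-type (interval 1.83 to 2.06) and 1.96 times for bbx4-1 (1.85 to 2.07), a log2 change of 0.01 (−0.11 to 0.13). HY5 stood at 1.92 times COP1 in wild-type and 1.86 times in the other column, a log2 change of −0.04 (−0.16 to 0.08), and HYH at 3.72 and 3.65 times. The balance of these transcripts to the ligase gene was therefore within counting error between genotypes. Protein levels of HY5 and HYH, which COP1 controls, were not measured.

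By level, wild-type ordered as HYH, SPA1, HY5, SPA3, DDB1A, COP1, DET1, COP10, SPA4 and SPA2, from 64.38 to 8.43 FPKM. Ranks among nuclear loci were 1693 for wild-type and 1608 for bbx4-1 in the case of HYH, and 10285 and 10550 in the case of SPA2. Neighbours in the wild-type order differed beyond counting error except COP10 and SPA4 (ratio 1.08, interval 0.99 to 1.18). In the column labelled bbx4-1 the order was the same except that SPA4 stood above COP10, again within counting error (ratio 1.06, interval 0.969 to 1.15), and SPA1 and HY5 did not differ beyond it (1.05, 1 to 1.1).

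**Figure D3:**
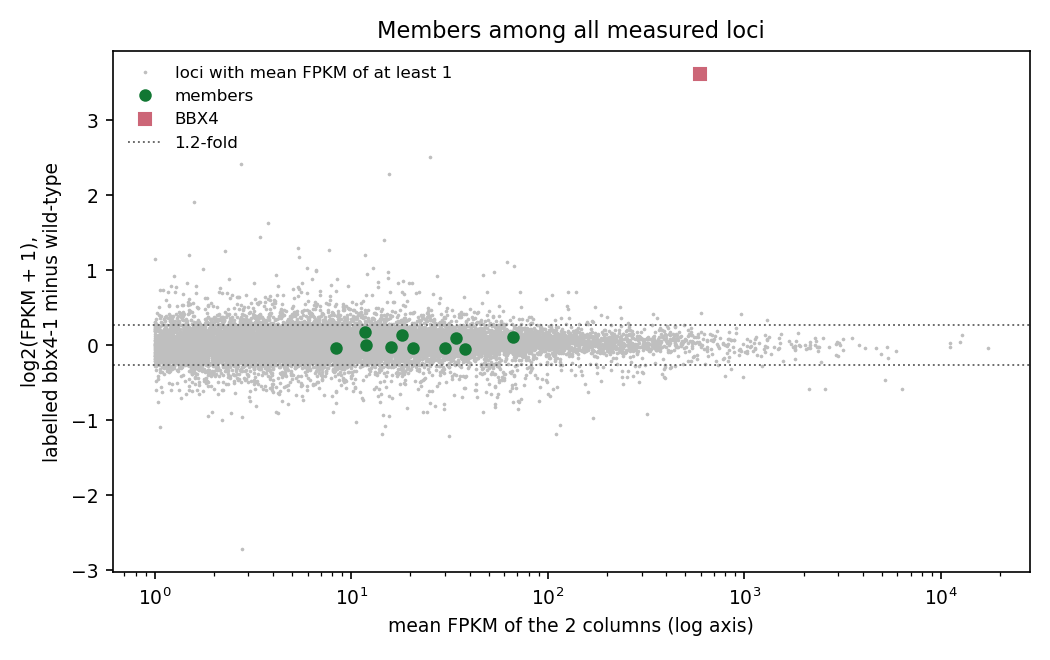
Difference of log2(FPKM + 1) between the column labelled bbx4-1 and wild-type against mean FPKM (log axis) for the 18931 loci kept by the minimum of 1 FPKM (grey), the 10 members (green) and BBX4 (square); dotted lines mark 1.2-fold. The members lie in the dense centre of the cloud, and BBX4 stands at 3.61.

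The genes listed here for the machinery around the members held 0 past 1.2-fold, where 5.14% of all loci were higher and 4.1% lower. With so few genes, 0 does not set them apart. Beyond counting error, 24.1% of loci were above 0 and 12.8% below. Of the partners of DDB1 in the CUL4 ligase, the scaffold CUL4 was at 35.97 and 35.91 FPKM (log2 difference −0.002), the RING subunit RBX1 at 44.0 and 46.72 FPKM (0.08) and the DNA damage receptor DDB2 at 4.31 and 4.72 FPKM (0.11). Together with DDB1B, 0 of these 4 genes passed counting error either way. The COP9 signalosome removes the NEDD8 tag from cullins, and its loss gives the same light-grown look in darkness. Its 10 subunit genes had a median of 0.03, from −0.16 for CSN5B (2.65 to 2.26 FPKM) and −0.03 for CSN5A to 0.09 for CSN7 and 0.11 for CSN8, with 0 past 1.2-fold and 1, CSN7, above 0 beyond counting error. Of 4 proteins known to bind COP1, CSU1, a RING ligase that limits COP1, was at 0.20 (17.35 to 20.1 FPKM), CIP8 at 0.07, CIP1 at −0.04 and CIP7 at −0.06. Here CSU1 was above 0 beyond counting error, and CIP1 and CIP7 were below.

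Upstream of the ligase, the 7 genes of photoreceptors and of the UVR8 repressors RUP1 and RUP2 had a median of 0.03. PHYB, the main receptor for red light, had 21.42 FPKM for wild-type and 24.21 FPKM for bbx4-1, a log2 difference of 0.17. The cryptochrome genes CRY1 and CRY2 were at −0.18 and −0.07. RUP2, which HY5 is known to activate, was the 1 gene of the 7 past 1.2-fold, at 9.39 and 12.69 FPKM (0.40). That fold was passed upwards by 5.14% of all loci. Beyond counting error, PHYB and RUP2 were above 0 and CRY1 and CRY2 below, where 24.1% and 12.8% of loci were. Among 4 known regulators of HY5 transcription, FHY3 was at 0.06, FAR1 at 0.05, BBX21 at −0.03 and the calmodulin CAM7 at 0.19 (100.7 to 115.24 FPKM). Only CAM7 among these 4 passed counting error.

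Among genes for COP1 substrates and HY5 targets the differences reached further from 0, with no test of that difference in spread. Members and lists were chosen with earlier results of these data known. Of the genes far from 0, GI and HFR1 lay below the members' range of 8.32 to 66.9 FPKM, and ELIP1 and FLS1 inside it. COP1 acts on its substrates as proteins, which were not measured. Of 12 genes for proteins known as COP1 substrates, 10 had mean FPKM of at least 1, with a median of 0.19. On the log2(FPKM + 1) scale 4 of them were at least 1.2-fold higher and 0 lower, where 5.14% and 4.1% of all loci were. Beyond counting error, 6 were above 0 and 1 below, where 24.1% and 12.8% of all loci were. As plain FPKM ratios, MYB75 (0.99 to 1.23 FPKM, 1.24-fold) and CO (0.833-fold) also passed 1.2-fold. GI, a clock and flowering protein, had 3.67 FPKM for wild-type and 7.0 FPKM for bbx4-1 (0.78), and HFR1, a repressor of shade growth, at 3.94 and 6.75 FPKM (0.65). BBX25 (45.75 to 59.97 FPKM) and PIL1 (0.8 to 1.36 FPKM) were the others on that scale, named after their values were seen, while BBX22 was at −0.07 and the flowering activator CO at −0.20 (3.65 to 3.04 FPKM). LAF1 and MYB90 had mean FPKM under 1. PIL1 and MYB75 were under 1 FPKM for wild-type and passed that minimum only through the column labelled bbx4-1. PIL1 is 1 of the 4 genes at least 1.2-fold higher and 1 of the 6 above 0 beyond counting error.

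Of 13 genes listed as activated by HY5, 12 had mean FPKM of at least 1, with a median of 0.13. On the same scale 4 were at least 1.2-fold higher and 0 lower, beside the same 5.14% and 4.1% of all loci. Beyond counting error 6 were above 0 and 3 below (RBCS1A, PSY and PORC), where 24.1% and 12.8% of all loci were. ELIP1, a chlorophyll-binding protein of light stress, had 12.78 FPKM for wild-type and 23.95 FPKM for bbx4-1 (0.86), FLS1, flavonol synthase, at 29.06 and 46.1 FPKM (0.65), ELIP2 at 0.41 and RUP2 at 0.40, the last 2 named after their values were seen. Phytoene synthase (PSY) was at −0.09 and PORC, a chlorophyll synthesis reductase, at −0.06. BBX30 and BBX31, small B-box genes that HY5 is known to repress, were higher too, from 5.69 to 11.29 FPKM (0.88) and from 7.89 to 16.11 FPKM (0.94). The list of repressed genes held only these 2, and both lists were chosen with earlier results of these data known. Each list thus held genes that were higher in the column labelled bbx4-1, beside a HY5 difference of 0.09. Whether that difference played any part in them was not tested.

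**Figure D4:**
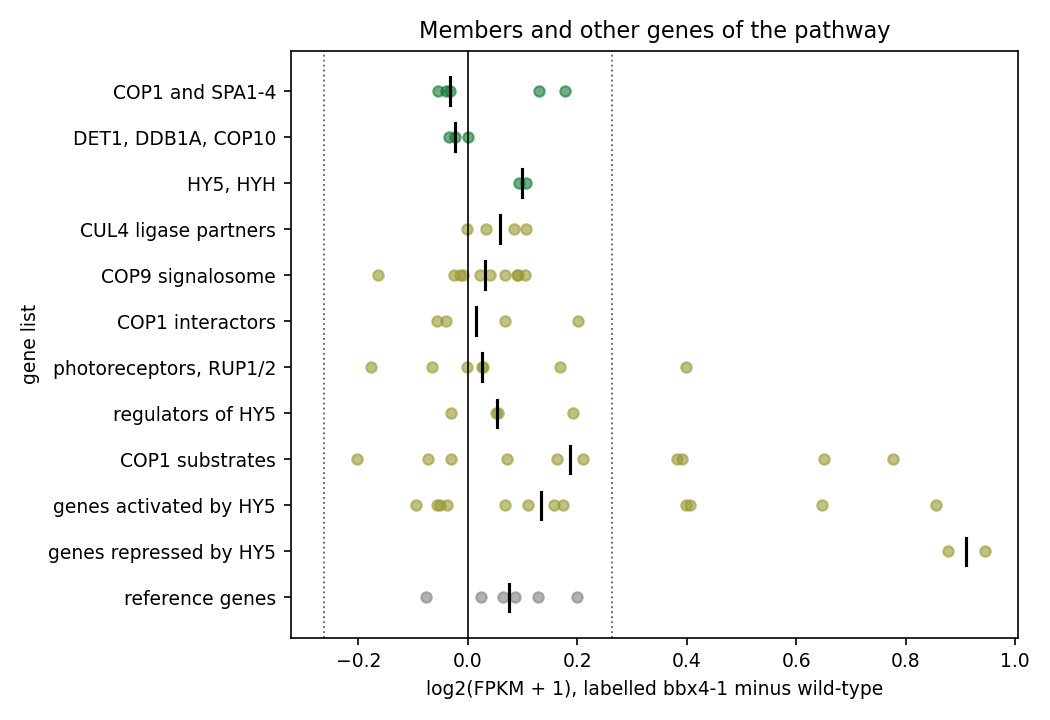
Difference of log2(FPKM + 1) between the column labelled bbx4-1 and wild-type for the members and for other gene lists of the pathway (1 point per gene with mean FPKM of at least 1; short black lines are list medians; dotted lines 1.2-fold). The members lie between −0.05 and 0.18, COP1 substrate genes reach 0.78 and BBX31 reaches 0.94. Members and lists were chosen with earlier results of these data known, and the difference in reach was not tested.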

How the data were processed

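The data are 2 tables, 1 per genotype, of FPKM as deposited by the authors, to 2 decimals, combined from 3 replicates per the series' design text. Per the submitters' processing notes, HISAT2 2.1.0, edgeR 3.0.8 and the build TAIR10 were used; no label names the counting tool, annotation release, gene lengths or strand setting. With 1 FPKM column per genotype there was no test to run. Differences were computed as log2(FPKM + 1), with no further scaling, at loci with mean FPKM of at least 1, in Python 3.11.15 with pandas 2.3.3. Approximate fragments per gene are FPKM times exon length, divided by the median FPKM-length product of single-fragment transfer RNA genes of at most 75 bp (20 genes in wild-type, 18 in the other column). Intervals are 1.96 SE and were tested on data simulated under the same counting model, lengths and depths. That test cannot check the depth estimate, the gene lengths or copies made by PCR. Libraries without molecular identifiers can hold PCR copies, so intervals may be too narrow.

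Lengths and coordinates are those of the TAIR10.1 RefSeq annotation, matched by locus for 32835 of 33602 loci, and sequences are those of the TAIR10.1 assembly. Of 94 entries in the gene lists, 89 matched a RefSeq symbol or synonym and 5 were dropped. All members are named; of each other list, the 2 highest and 2 lowest, or all of a list of 5 or fewer. Members and lists were chosen with earlier results of these data known. Genes were not ranked by likeness of pattern, since 2 columns give a gene 1 ratio. Alternatives covered pseudocounts, rescaling, low-value filters, transcript length and depth. The window before SPA2 is not reported here.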

Additional observations from a re-analysis of the deposited data

How the results depend on the processing

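The log2 differences of the 10 members stayed inside their counting intervals in all 50 combinations of member and alternative (pseudocounts of 0.1 and 5, rescaling to nuclear loci, by a trimmed mean, or centring on the median), and 0 members passed 1.2-fold in any of them. The number of members above or below 0 beyond counting error was less stable. It went from 4 above and 1 below to 3 above and 2 below after rescaling to nuclear loci, where HY5 left those above and SPA3 joined those below, to 2 above and 3 below after trimmed-mean rescaling and after centring, and to 1 above (SPA4) and 0 below at the depth of 1 library. The rescalings lower the column labelled bbx4-1 (shift of −0.019 to −0.032 in log2 FPKM, slightly less after the pseudocount is added), while the lower bound of HY5 was 0.009 above 0. Shifts of this size are smaller than the margin of every member's interval. The rescalings therefore could not move a difference outside its interval. The share of all loci past 1.2-fold was 9.24%, 13.7% at a pseudocount of 0.1 and 3.7% at a pseudocount of 5. No paired analysis was possible because the tables hold 1 combined column per genotype, and for the same reason no replicate could be left out. Depth limits COP10 most, with an interval of −0.14 to 0.14.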
